A study of Mus musculus with 2 samples.

Results

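Cortical projection neurons are arranged in layers, and each layer is known by the transcription factors that its neurons keep after birth. Cux1, Cux2 and Rorb mark layers 2 to 4; Bcl11b (Ctip2), Fezf2 and Etv1 (Er81) mark layer 5; Tbr1, Foxp2 and Tle4 mark layer 6. These 9 genes, chosen by name, are described here among the 55536 genes quantified. Left cerebral cortex was taken from 2 mice, both male F1 hybrids (B6CASTF1/J, a cross of the B6 and CAST strains) aged 36 days, with 1 library of 300 ng of RNA per mouse, ERCC spike-in RNAs and reduction of ribosomal RNA. Both mice belong to 1 group with no treatment or genotype contrast, and the labels number them as biological replicates while giving both the same donor identifier. With 1 group of 2 mice there is no comparison between conditions, and no p-value was computed.

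In the developing cortex, layer identity is set by factors that repress one another. Fezf2 and Bcl11b direct the subcerebral neurons of layer 5, Tbr1 holds back that programme in the corticothalamic neurons of layer 6, and the Cux genes shape dendrites and synapses of upper-layer neurons. Most of the 9 are also known outside these neurons: Bcl11b, Foxp2 and Tle4 in striatal projection neurons, Bcl11b and Cux2 in subsets of cortical interneurons, and Rorb in the thalamus. Layers were not separated in this tissue, so in these bulk libraries fewer cells of a type and less RNA per cell cannot be told apart.

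The total expected count (estimated reads over all rows) was 29915463 in replicate 1 and 27988085 in replicate 2. Of the cortical excitatory neuron markers 6 of 6 were detected, from Emx1 at a mean of 14.3 TPM (abundance per length, brought to the same total in each library) to Camk2a at 1097 TPM. Of the interneuron markers 8 of 8 were detected, from Lhx6 at 8.43 TPM to Sst at 180.1 TPM, with summed levels of 504.9 and 530.5 TPM in replicates 1 and 2. Of the glial and vascular markers 10 of 10 were detected, from Pecam1 at 7.49 TPM to Mbp at 536.6 TPM, summing to 1346 and 1184 TPM. Markers of neighbouring regions were also read: 9 of 10 striatal projection neuron markers were detected, with Ppp1r1b highest at a mean of 127.3 TPM and Isl1, at 0.94 and 1.18 TPM, the 1 below 1 TPM in a mouse, and the list summed to 356.9 and 310.9 TPM. Among thalamic markers 5 of 6 were detected (all but Gbx2 at a mean of 0.185 TPM, with Slc17a6 highest at 13.03 TPM, the list summing to 32.8 and 41.3 TPM), and hippocampal markers in 5 of 6 (all but Lct at 0.80 TPM, with Wfs1 highest at 57.5 TPM, the list summing to 76.4 and 102.9 TPM). None of these 3 regional lists held a gene at 0 counts in both mice.

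For several members the transcripts differ in what they encode, and those of Cux1, Bcl11b and Rorb are shown in sequence here because the results turn on them. Transcripts were read in their annotated frames (GENCODE M21, mm10), and each frame was searched for a signature of its family's DNA-binding domain. The Cux1 gene (chr5:136248135-136567490, minus strand) makes a long frame that carries a homeodomain signature and a shorter frame that does not. Both share an upstream coding part up to chr5:136314307 and then splice to different exons. In the 2 sequences below the shared bases are in lower case and the bases of the different exons in capitals; the capitals lie at chr5:136312949-136313008 for Cux1-201 and at chr5:136257981-136258040 for Cux1-211.
Cux1-201: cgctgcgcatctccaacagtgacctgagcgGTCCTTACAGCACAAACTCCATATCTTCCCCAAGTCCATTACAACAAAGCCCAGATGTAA
Cux1-211: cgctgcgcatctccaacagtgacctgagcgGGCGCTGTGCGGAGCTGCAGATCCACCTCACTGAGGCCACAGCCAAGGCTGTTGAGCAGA
Beyond that point only the first frame reaches the homeodomain. Its signature, in capitals, is shown beside that of Cux2-202, the leading long Cux2 transcript by expected count, and the 2 windows matched at 59 of 72 bases (81.9%).
Cux1-201 homeodomain: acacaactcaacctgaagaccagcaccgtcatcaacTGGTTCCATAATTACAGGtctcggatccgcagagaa
Cux2-202 homeodomain: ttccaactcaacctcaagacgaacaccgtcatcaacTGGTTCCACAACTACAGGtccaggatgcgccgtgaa
On the genome, introns included, the Cux1 window spans chr5:136275448-136279482 and the Cux2 window chr5:121861363-121864699, both on the minus strand.

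Bcl11b (chr12:107910403-108003602, minus strand) makes 2 main frames that differ by a whole coding exon of 216 bases, or 72 codons, at chr12:107965672-107965887. The exon is present in Bcl11b-201 and absent from Bcl11b-203, and is printed entire with no base marked.
Bcl11b-201 exon: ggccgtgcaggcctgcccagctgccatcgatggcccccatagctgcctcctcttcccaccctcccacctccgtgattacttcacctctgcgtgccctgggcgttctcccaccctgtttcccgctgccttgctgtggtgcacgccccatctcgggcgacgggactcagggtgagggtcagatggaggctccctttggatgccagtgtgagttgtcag

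Rorb (chr19:18930605-19111196, minus strand) has 2 groups of annotated starts, at chr19 position 19111196 and near position 19001117, each with a coding start of its own. The coding bases that belong to 1 start are in capitals, and the lower-case bases are the beginning of the shared frame. The capitals lie at chr19:19110552-19110558 for Rorb-203 and at chr19:19001007-19001046 for Rorb-201.
Rorb-203: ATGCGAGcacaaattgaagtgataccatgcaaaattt
Rorb-201: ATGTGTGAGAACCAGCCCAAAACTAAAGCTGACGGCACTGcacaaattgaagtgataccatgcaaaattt
The promoters of these 2 starts follow, from RefSeq on GRCm38.p6, each from 250 bases before to 50 bases after the RefSeq start, because the starts were used unequally. Capitals mark matches to CCAAT or to the GC box GGGCGG on either strand.
Rorb promoter, chr19:19111147-19111446: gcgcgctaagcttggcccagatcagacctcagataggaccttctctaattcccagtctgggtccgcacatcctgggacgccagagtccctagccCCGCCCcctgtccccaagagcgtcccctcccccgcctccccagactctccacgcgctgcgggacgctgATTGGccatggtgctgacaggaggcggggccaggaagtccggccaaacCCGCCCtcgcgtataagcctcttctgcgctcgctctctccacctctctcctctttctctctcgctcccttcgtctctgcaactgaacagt
Rorb promoter, chr19:19001068-19001367: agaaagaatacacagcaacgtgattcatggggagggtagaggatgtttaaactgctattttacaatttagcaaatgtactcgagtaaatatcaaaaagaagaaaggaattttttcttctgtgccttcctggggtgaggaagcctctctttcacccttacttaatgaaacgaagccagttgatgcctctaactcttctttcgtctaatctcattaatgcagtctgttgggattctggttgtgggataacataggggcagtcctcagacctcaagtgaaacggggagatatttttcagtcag
The first window held 1 CCAAT match, 2 GC box matches and 20 CpG at 63.7% GC, and the second held none of these motifs and 5 CpG at 41.0% GC. Of 32807 promoters of this length, 37.4% held CCAAT, 35.6% held GGGCGG and 13.6% held TATAAA, which neither Rorb window held; the median promoter had 7 CpG and 52.7% GC. A match is a description of the letters and not a binding site, and a window without one says only that the letters are not in it.

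All 9 members were detected, meaning 1 TPM or more in each mouse, against 58.6% of 22028 protein-coding genes. Their mean levels ran from 90.8 TPM for Cux2 to 6.77 TPM for Foxp2, from rank 1026 to rank 9541 of 22015 nuclear protein-coding genes. The order of gene totals from high to low was Cux2, Tbr1, Cux1, Bcl11b, Etv1, Rorb, Tle4, Fezf2 and Foxp2. The values of the 2 mice did not overlap in any of the 8 neighbouring pairs of this order, which with 2 mice per gene is a description of the spread and no test.

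**Figure D1:**
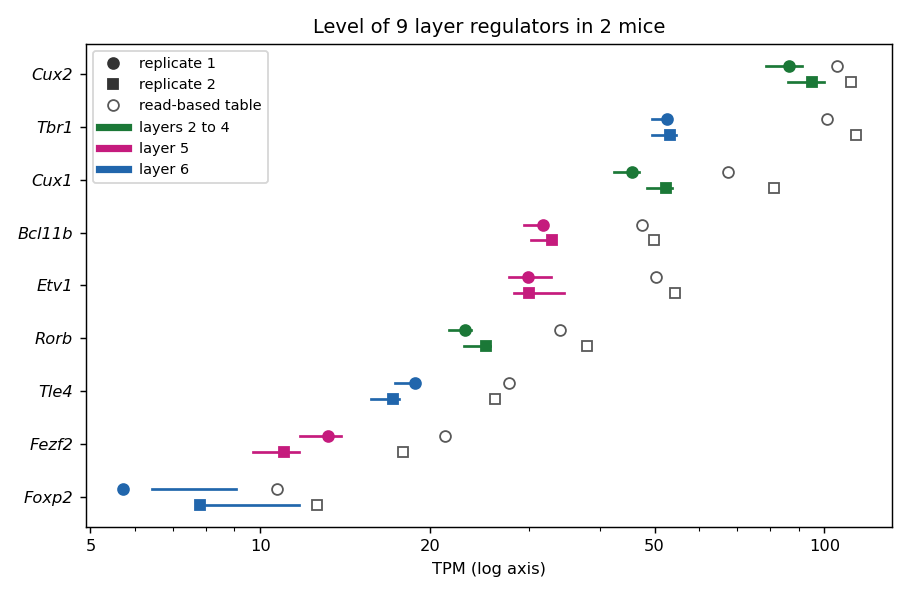
TPM on a log axis for each of the 9 genes in replicate 1 (circles) and replicate 2 (squares); filled symbols are the alignment-based gene table with its deposited 95% credibility interval as a line, open symbols the read-based table summed by gene, and colours the layer. Cux2 stood highest at 86.5 and 95.2 TPM and Foxp2 lowest at 5.70 and 7.83 TPM, with both Foxp2 values below their own intervals.

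Among the layer 2 to 4 genes, Cux2, a homeodomain factor of upper-layer neurons, stood at 86.5 TPM in replicate 1 and 95.2 TPM in replicate 2 (90.8 ± 6.17, SD, n = 2). By gene total it was the highest member in both mice, and its lowest value lay above the highest value of every other member. Cux1, its paralog, stood at 45.6 and 52.4 TPM (49.0 ± 4.82, SD, n = 2). On the scale log2(TPM + 1), Cux2 exceeded Cux1 by 0.91 in replicate 1 and 0.85 in replicate 2, a mean of 0.88 ± 0.04 (SD, n = 2) or 1.84-fold; in the read-based table the mean was 0.54. Rorb, an orphan nuclear receptor best known from layer 4 and its barrels, stood at 23.1 and 25.1 TPM (24.1 ± 1.42, SD, n = 2). All 3 genes read higher in TPM in replicate 2. Their summed level was 155.1 and 172.7 TPM, above the sums of the other layers' genes in both mice. These are sums of gene totals. Frames with the signature held only 39.1% and 39.8% of the Cux1 TPM and 44.6% and 45.7% of the Cux2 TPM. The excess is thus not one of homeodomain transcripts alone.

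Among the layer 5 genes, Bcl11b, a zinc finger factor required for the axons of corticospinal neurons, stood at 31.7 and 32.9 TPM (32.3 ± 0.834, SD, n = 2). Etv1 (chr12:38779380-38870484, plus strand), an ETS factor of layer 5 neurons, stood at 29.8 and 29.96 TPM (29.9 ± 0.134, SD, n = 2). The 2 genes did not overlap between mice in the alignment-based table, where Bcl11b exceeded Etv1 by 0.11 ± 0.03 (log2, SD, n = 2), but their order turned in the read-based table, to -0.10. Fezf2 (chr14:12342094-12348189, minus strand), the zinc finger factor that specifies subcerebral neurons, stood at 13.2 and 11.0 TPM (12.1 ± 1.54, SD, n = 2). It was the lowest of the layer 5 genes in both mice, below Bcl11b by 1.20 and 1.495 on the log2(TPM + 1) scale. The summed layer 5 level was 74.6 and 73.8 TPM.

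Among the layer 6 genes, Tbr1 (chr2:61802930-61814114, plus strand), the T-box factor of corticothalamic neurons, stood at 52.6 and 53.2 TPM (52.9 ± 0.438, SD, n = 2). Its place above Cux1 rested on a narrow gap: its lower value, 52.6 TPM, stood just above the 52.4 TPM of Cux1 in replicate 2, where the deposited intervals of 49.5 to 54.5 TPM for Tbr1 and 48.5 to 53.7 TPM for Cux1 overlapped. Tle4 (chr19:14448150-14598051, minus strand), a Groucho-family corepressor with no DNA-binding domain of its own, stood at 18.8 and 17.2 TPM (18.0 ± 1.13, SD, n = 2). Foxp2 (chr6:14901349-15441977, plus strand), a forkhead factor known for its role in speech and motor learning, stood at 5.70 and 7.83 TPM (6.77 ± 1.51, SD, n = 2). Within the layer, Tbr1 exceeded Tle4 by 1.51 ± 0.10 and Foxp2 by 2.81 ± 0.27 on the log2(TPM + 1) scale (SD, n = 2). The summed layer 6 level was 77.1 and 78.3 TPM.

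The read-based table gave higher TPM throughout. Its ratio to the alignment-based level had a median of 1.55 over 12902 detected protein-coding genes, with 5th and 95th percentiles of 1.21 and 2.27. Cux2 lay below that range at 1.19 and Tbr1 had the highest ratio of the members at 2.03. Cux2 and Tbr1 were therefore close in the read-based table: Cux2 at 105.2 and 111.6 TPM overlapped Tbr1 at 101.0 and 113.7 TPM, with Cux2 higher in replicate 1 and Tbr1 higher in replicate 2. The other members kept their places, apart from the exchange of Bcl11b and Etv1.

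Counts differed little between the mice. The log2 ratio of replicate 2 over replicate 1, on expected counts scaled by TMM (a scaling that sets most genes to no change), exceeded 1 in size for 0 of 9 members, against 0.247% of the 11728 protein-coding genes averaging 100 or more counts. The median size was 0.09 over the members and 0.10 over all those genes, of which 95% lay within 0.39. The 95% counting interval lay on 1 side of 0 for 6 of 9 members, 2 higher and 4 lower in replicate 2, against 37.8% of the genes. These intervals are exact binomial and cover counting error only, so they do not speak to differences between animals in general. They also narrow as counts rise. The members, at 428 to 5678 counts per mouse, were not matched in depth to the other genes, so the 2 shares are not directly comparable.

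Fezf2 differed most, with 558 and 428 counts and a log2 ratio of -0.35 (interval -0.53 to -0.16). Tle4 had 1614 and 1346 counts (-0.23, interval -0.33 to -0.12), and Etv1 had 2531 and 2189 (-0.17, interval -0.26 to -0.09). Tbr1, with 3923 and 3629 counts, was also lower in replicate 2 by this interval (-0.08, interval -0.14 to -0.01). Cux1 and Cux2 went the other way. Cux1 had 4631 and 4812 counts (0.09, interval 0.03 to 0.15), and Cux2 had 5530 and 5678 (0.07, interval 0.02 to 0.13). The intervals of the remaining 3 held 0: Rorb at 3972 and 3857 counts (-0.01), Bcl11b at 3558 and 3406 (-0.03) and Foxp2 at 615 and 561 (-0.10).

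**Figure D2:**
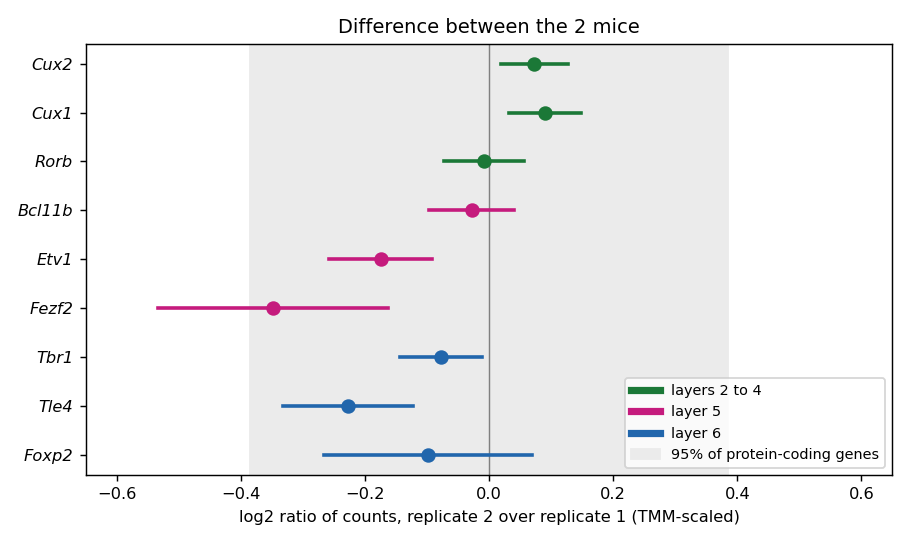
Log2 ratio of TMM-scaled expected counts, replicate 2 over replicate 1, for each of the 9 genes grouped by layer (colours); points are ratios, lines 95% counting intervals, and the grey band holds 95% of protein-coding genes averaging 100 or more counts. Cux1 and Cux2 lay above 0, and Fezf2 at -0.35 was the farthest from it, inside the band.

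By layer, the median log2 ratio was 0.07 for the layer 2 to 4 genes, -0.17 for the layer 5 genes and -0.10 for the layer 6 genes, where the median gene stood at -0.03. The sign of these small ratios depends on the scaling: with library totals 4 of 9 members were above 0 (Rorb at 0.05 and Bcl11b at 0.03 joined the Cux genes), and with spike-in totals all 9 were, since the median gene moved to 0.37. The effector genes of the same layers, fixed as lists of 10, gave medians of 0.02 for layers 2 to 4, which turned to -0.04 in the read-based table (5 higher and 4 lower of 9 genes with enough counts), -0.23 for layer 5 (2 higher, 8 lower) and -0.18 for layer 6 (2 higher, 6 lower). None of them exceeded 1 in size. The lists ran in mean level from Scnn1a (1.38 TPM) to Lamp5 (116.5 TPM), from Fam84b (2.76 TPM) to Pcp4 (272.5 TPM) and from Osr1 (1.62 TPM) to Rprm (33.2 TPM), and all 30 genes were detected.

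Marker lists of other cell types and regions also differed between the mice. Striatal projection neuron markers had a median of -0.24, with 8 of 9 lower in replicate 2, and cortical excitatory neuron markers had a median of -0.18, with 5 of 6 lower. Hippocampal markers had a median of 0.21, with 3 of 3 above 0 of which Prox1 was at 0.0023, and thalamic markers a median of 0.08 with 4 of 5 higher, which turned to -0.05 in the read-based table, while interneuron (-0.03) and glial and vascular markers (-0.01) lay near the median gene. The part of these cell types in the members' ratios was not tested.

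Among the transcripts, the Cux1 result turns on the splice shown above. The gene is known, as background, to make besides the homeodomain factor a Golgi protein, CASP, which shares the upstream coiled coil and lacks the DNA-binding domains; Cux1-211 was not matched to that protein by sequence here. Cux1-211 (676 codons) and Cux1-207, the complete frames without the signature, together held 45.0% of the gene's TPM in replicate 1 and 38.9% in replicate 2. The 5 frames with the signature, led by Cux1-201 (1426 codons, signature from codon 1197), held 39.1% and 39.8%. In TPM the complete frames without it stood at 20.5 and 20.4 and the frames with it at 17.8 and 20.9. Neither of these 2 classes was higher in both mice. Incomplete frames without the signature, at 5.41 and 7.21 TPM, were assigned to neither class, and the comparison depends on leaving them out. The read-based table gave 38.4% and 32.4% for complete frames without the signature and 37.7% and 36.2% for frames with it.

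The same transcripts looked different by expected count, since long transcripts give more reads. The frames with the homeodomain signature took 72.8% and 73.1% of the Cux1 counts and the complete frames without it 23.8% and 21.2%. Cux1-201 is 12862 bases long and Cux1-211 2831 bases, and 1558 bases of the latter lie outside Cux1-201. Another 11.9% and 13.8% of TPM lay on Cux1-208, an incomplete frame of 805 bases with 75.2 and 93.5 counts. A level of Cux1 in TPM is thus not a level of homeodomain transcripts alone.

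Cux2 (chr5:121856366-122050102, minus strand) showed a division of another kind. Its 3 transcripts with the homeodomain signature, Cux2-201, Cux2-202 and Cux2-210, hold the same coding sequence of 1426 codons and took 44.6% and 45.7% of TPM but 87.8% and 88.9% of counts. In TPM these frames stood at 38.5 and 43.5, above the 17.8 and 20.9 TPM of the Cux1 frames with a signature in both mice. They lay below Tbr1-201, the Tbr1 frame with a signature, at 50.99 and 50.3 TPM. The place of Cux2 above Tbr1 was thus one of gene totals and did not hold for frames with a signature. The rest of the Cux2 TPM was mostly on short models: Cux2-205, of 420 bases, held 19.1% and 21.2% on 104.3 and 119.3 counts, Cux2-204, of 740 bases, 17.2% and 11.9%, and the retained-intron model Cux2-211 13.2% and 11.6%.

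Which Cux2 start was used could not be settled, since the tables differed. The alignment-based table put 21.9% and 25.5% on Cux2-210 and 3.46% and 1.10% on Cux2-201. The read-based table put 34.8% and 37.0% on Cux2-201, with Cux2-210 near 0. Cux2-210 has only 6 bases that no other Cux2 transcript holds and Cux2-201 has 0. Cux2-202, with 3926 bases of its own, was steadier at 19.3% and 19.1% in the first table and 22.0% and 23.7% in the second. By mean share over both mice the leading transcript was the same in both tables for 8 of 9 members, all but Cux2; in replicate 1 alone that of Foxp2 differed too.

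Rorb came mostly from the upstream start. Rorb-203, of 459 codons, held 93.4% and 87.7% of its TPM, and 94.4% and 86.4% in the read-based table. The downstream start group held 6.60% and 12.3%, or 71.9 and 140.3 counts. Rorb-201, whose 470 codons begin with the longer coding start printed above, was listed at 0 counts in both mice; a longer Rorb form is known, as background, from the retina and pineal gland. The downstream reads fell on the retained-intron model Rorb-204 (46.6 and 70.9 counts) and on Rorb-202 (25.3 and 69.4 counts), a frame of 385 codons without the zinc finger signature of nuclear receptors. Of the 2 promoter windows printed above, the one upstream of the leading start was the richer in GC and CpG.

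Bcl11b kept both of its frames at similar levels in TPM, but not in counts. Bcl11b-201, with the printed exon and 884 codons, held 55.9% and 54.6% of TPM, and Bcl11b-203, with 812 codons, held 43.6% and 44.2%. The read-based shares were 54.3% and 52.7% against 44.0% and 44.9%, so the longer frame led in both mice and both tables. Both frames held 6 zinc finger signatures, the first at codon 223 with the exon and at codon 151 without it. By expected count Bcl11b-201 took 2791 and 2644 and Bcl11b-203, of 2888 bases, 759 and 744. Bcl11b-203 has 0 bases of its own, while 5223 of the 8111 bases of Bcl11b-201 are, so the division rests on reads over the exon junctions and on the longer transcript's own bases. The printed exon makes up 216 of those own bases, so the shares do not measure use of the exon alone.

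Fezf2 was led by Fezf2-201 at 70.6% and 69.4% of TPM, followed by Fezf2-203 at 27.3% and 21%; both hold the same coding sequence of 455 codons with 6 zinc finger signatures. Fezf2-202, of 373 codons with 3 signatures, held 2.15% and 9.64% on 10.2 and 35.5 counts. Its read-based share was higher, 15.2% and 15.4%. The 2 tables thus placed the frame with fewer zinc fingers between 2.15% and 15.4% of the gene.

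Etv1 divided its level among several coding transcripts. Its upstream start group held 81.5% and 80.5% of TPM and the next group 17.6% and 18.1%, close in both mice. Within the upstream group, Etv1-201 (477 codons) held 47.6% and 39.5%, Etv1-203 (454 codons) 12.9% and 21.7%, and Etv1-205 (459 codons) 13.3% and 10.03%. In the read-based table these shares were 40.3% and 31.6%, 4.45% and 9.18%, and 12.5% and 5.62%. Etv1-205 has 0 bases that no other Etv1 transcript holds and Etv1-203 has 100, so the division within the group is uncertain. Etv1-202, the main transcript of the next group at 17.6% and 14.6%, has 437 codons and begins with 61 coding bases that Etv1-201 lacks. These are shown in capitals beside the end of the upstream coding bases of Etv1-201, with the shared frame in lower case.
Etv1-201: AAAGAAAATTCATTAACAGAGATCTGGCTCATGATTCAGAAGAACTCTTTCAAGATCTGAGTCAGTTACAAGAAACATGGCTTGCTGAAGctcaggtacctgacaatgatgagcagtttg
Etv1-202: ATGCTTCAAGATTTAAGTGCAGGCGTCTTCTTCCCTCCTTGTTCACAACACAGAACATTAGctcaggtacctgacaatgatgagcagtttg
The capitals of Etv1-202 lie at chr12:38783742-38783802. Frames with the ETS signature held 91.6% and 92.04% of the gene in all. In the read-based table they held 83.0% and 77.3%, with 14.99% and 19.98% on Etv1-208, an incomplete frame of the upstream group without it.

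Tbr1 and Tle4 were each dominated by 1 transcript. Tbr1-201, of 681 codons, held 96.9% and 94.5% of TPM and 99.2% and 98.8% of counts. In the read-based table it held 70.6% and 59.96%, with 28.8% and 39.3% on Tbr1-203, a model of 796 bases with no protein annotated. The read-based Tbr1 level of 101.0 and 113.7 TPM therefore included that short model. Tle4-201, of 773 codons, held 97.4% and 94.1% of TPM, and 96.4% and 93.5% in the read-based table.

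Foxp2 was the least certain of the 9. Its TPM was higher in replicate 2, by 0.46 on the log2 scale, while its counts gave -0.10. The effective length of the gene (its transcripts' lengths weighted by their shares), by which counts are divided to give TPM, was 5481 bases in replicate 1 and 3896 in replicate 2. A model of 265 bases, Foxp2-218, held 12.6% of TPM on 3 counts in replicate 2 and was listed at 0 in replicate 1. The deposited TPM lay below its own credibility interval in both mice, at 6.44 to 9.06 and 8.00 to 11.7 TPM, which occurred for 1 of 9 members and for 0.691% of 11728 protein-coding genes. The deposited posterior mean TPM was 7.72 and 9.77. Frames with the forkhead signature held 81.0% and 55.2% of the gene, but 4.62 and 4.32 TPM. In TPM these frames were thus near the same in both mice while the gene total was not. Their expected counts before scaling were 566.7 and 466.8, lower in replicate 2.

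The 2 main Foxp2 transcripts hold the same coding sequence of 714 codons and start at different places, at chr6 position 14901349 for Foxp2-207 and 15185506 for Foxp2-201. Foxp2-207 led in replicate 1 with 49.8%, against 31.2% for Foxp2-201, and Foxp2-201 led in replicate 2 with 38.9%, against 16.2%. The corresponding counts were 372.4 and 155.7 for Foxp2-207 and 194.3 and 311.1 for Foxp2-201. In the read-based table Foxp2-201 led in both mice, at 32.4% and 44.9%. Another 13.4% and 15.2% lay there on Foxp2-220, a model with no protein annotated that held 2.21% and 2.99% in the alignment-based table. Foxp2-201 has 0 bases of its own and Foxp2-207 has 815, so few reads tell the starts apart.

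**Figure D3:**
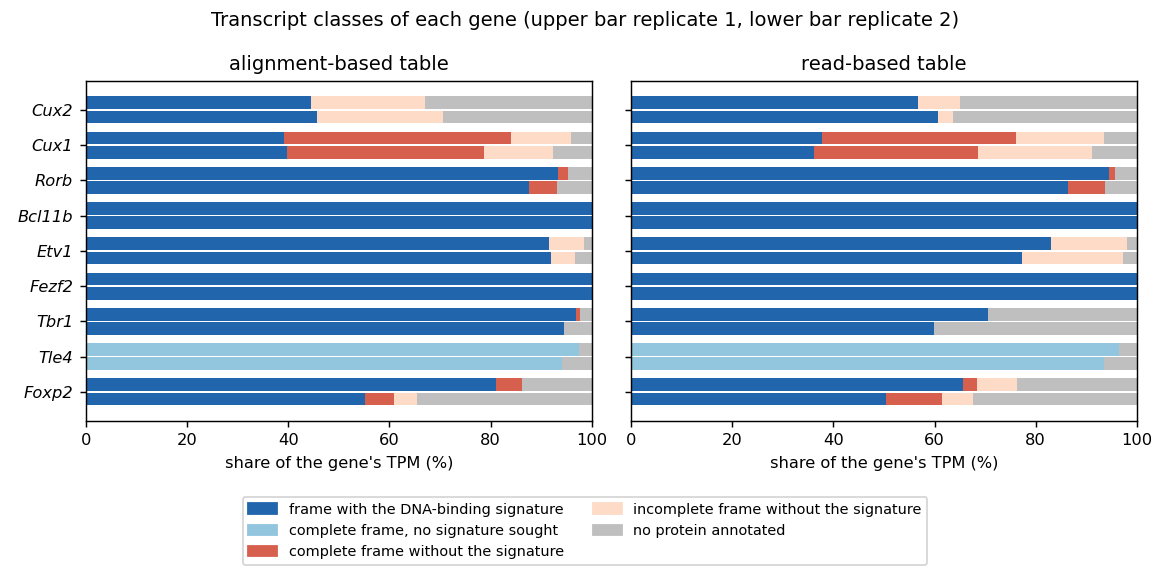
Share of each gene's TPM in percent by transcript class, in the alignment-based (left) and the read-based table (right); the upper bar of each pair is replicate 1 and the lower replicate 2, and colours are the classes, with no signature sought for Tle4. Bcl11b and Fezf2 lay wholly on frames with the DNA-binding signature, while Cux1 had 45.0% and 38.9% on complete frames without it.

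The members' nearest relatives, 15 paralogs, show which family genes shared the tissue, and 10 of them were detected. In the Ror family, Rora stood at 35.0 and 36.1 TPM, above Rorb in both mice. Bcl11a, a zinc finger factor, stood at 43.8 and 51.3 TPM, above Bcl11b. In contrast Fezf1 stood at 0.07 and 0.09 TPM, and the T-box genes Eomes, a marker of intermediate progenitors, and Tbx21 at means of 0.105 and 0.09 TPM, so Fezf2 and Tbr1 were the only genes of those listed families at 1 TPM or more. Foxp1 (66.1 and 62.7 TPM) and Foxp4 (17.8 and 19.5 TPM) both stood above Foxp2 in both mice, and Foxp3 had 0 counts in both, each of which allows up to 3 counts.

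In the Groucho family Tle3 stood highest at a mean of 30.3 TPM, followed by Tle1 at 21.7, Tle4 at 18.0, Tle2 at 15.9 and Tle6 at 4.58 TPM. Tle4, the layer 6 gene, thus stood in the middle of its family and not above it. Etv5, an ETS factor, stood at 48.5 and 38.4 TPM, above Etv1 in both mice, and Etv4 at 5.93 and 8.97 TPM below it. Over the 9 paralogs with enough counts the median log2 ratio was 0.13, with 5 higher and 4 lower in replicate 2.

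**Figure D4:**
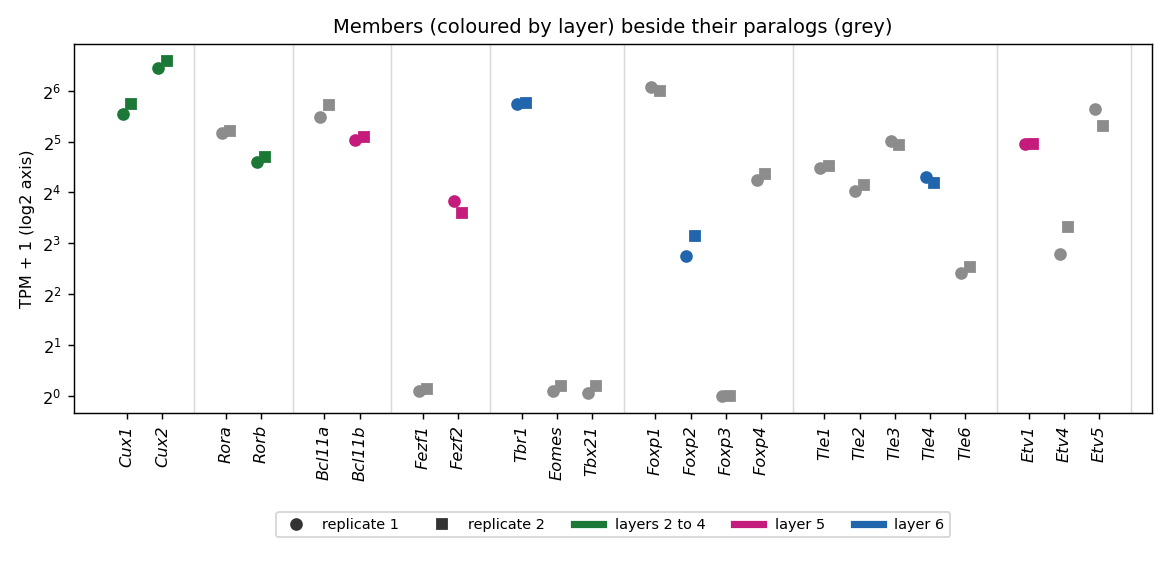
TPM + 1 on a log2 axis for the 9 genes (coloured by layer) and their paralogs reported here (grey) by family, in replicate 1 (circles) and replicate 2 (squares). Fezf1, Eomes, Tbx21 and Foxp3 lay below 1 TPM in both mice, and Foxp1, Foxp4, Rora, Bcl11a, Etv5, Tle1 and Tle3 lay above the member of their family.

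Other regulators of projection neurons, a list of 28, were all detected, with a median of 26.9 ± 1.11 TPM (SD, n = 2), from Otx1, a homeodomain factor of deep layers, at 2.93 TPM to Mef2c, a MADS-box factor of neurons, at 271.6 TPM. Between the mice 8 read higher and 20 lower in replicate 2 with a median log2 ratio of -0.10, and none exceeded 1 in size. Regulators of progenitors and early neurons stood lower: 7 of 10 were detected, with a median of 2.23 TPM over the list, whose lowest gene was Neurog1 at 0.035 TPM and highest Sox2 at 16.4 TPM. Of the 6 with enough counts, 4 were higher in replicate 2 and the median log2 ratio was 0.27. Fezf2 and Foxp2 were the 2 members whose mean lay below that of Sox2.

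Genes that overlap the members took few counts. On the opposite strand, Gm16599 at Cux1 had 1 and 0 counts, and Gm15637 and Gm3970 at Cux2 had 0 and 1 and 0 and 0. On the same strand within Cux1, Gm38082 had 77 and 130 counts and A430110C17Rik 51 and 76, against 4631 and 4812 for Cux1, and Mir721 had 0. Within Foxp2, Gm25470 had 1 and 0 counts. Whether the counting used strand is not given in the sources used here, and the part of the same-strand models in the Cux1 counts was not tested.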

How the data were processed

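A library of total RNA per mouse was sequenced from left cerebral cortex. The deposited files of each library are a gene table and a transcript table quantified from a transcriptome alignment, and a transcript table quantified from the reads (build mm10, annotation GENCODE M21, as the deposited listing states). Names of the aligner and quantifiers were not given in the sources used here. Per the file headers the authors deposited expected counts (estimated counts, not normalized), TPM summed across every row, and each transcript's percent of its gene. Estimated counts divide reads between overlapping transcripts, so short or nested models are uncertain. TPM includes abundant small RNAs, so levels are relative. Reads of the B6 and CAST alleles were not analysed separately.

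Levels are deposited TPM. Expected counts were rounded to whole numbers and scaled by TMM in edgeR 4.0.16 (R 4.3.3), with a prior count of 0.5 for log2 ratios and exact binomial intervals at 95%. No test across genes was possible with 1 group, and edgeR was used for scaling alone. Frames were translated from the annotation with Python 3.11.15 and biopython 1.88, and tables were made with pandas 2.3.3 and numpy 2.4.6, intervals with scipy 1.17.1 and plots with matplotlib 3.10.9. Neighbouring starts of a gene with no gap over 2000 bases between them form a start group, which can span more from end to end. Promoters came from RefSeq, GRCm38.p6, with entries for 8 of 9 members. The ratio step was tested on simulated data. The depth was 27988085 to 29915463 total expected counts.

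The members and 15 gene lists were chosen with earlier results of these data known. The totals given for the lists also cover a gene that is not reported here. Named are the members, their other paralogs, the highest and lowest gene of each list, transcripts with a mean share of at least 10% in either table, and genes overlapping a member; Cux1-207, Foxp2-218, Rorb-201, Rorb-202 and Rorb-204 were named after their values were seen. Alternatives were spike-in totals, library totals, size factors of DESeq2 1.42.0, the read-based table, posterior mean and rescaled TPM, other thresholds (0.1 and 5 TPM, 20 counts and no minimum), a pseudocount of 0.1, protein-coding transcripts alone and each mouse alone.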

Additional observations from a re-analysis of the deposited data

How the results depend on the processing

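All 9 members were detected under each threshold, table and mouse tried, and 0 of 9 exceeded a log2 ratio of 1 in size under TMM, DESeq2 size factors, library totals, spike-in totals and the read-based table. The other projection neuron regulators numbered 28 detected, and 26 at a threshold of 5 TPM. The number of protein-coding genes over a log2 ratio of 1 in size was 29 under TMM, 67 with spike-in totals, 115 with a minimum mean count of 20 and 1761 with no minimum, where low counts enter by construction. The read-based table moved the levels of all 9 members beyond the SD between the mice, as did rescaling. Rescaling divides by the nuclear protein-coding share of TPM, 45.0% and 45.5%, so it raises every gene by a nearly common factor. That move is by construction and says nothing about the members. Posterior mean TPM moved 4 of 9. The leading transcript was the same in both tables for 8 of 9 members, for 8 with protein-coding transcripts alone or replicate 2 alone, and for 7 with replicate 1 alone. Depth limits Fezf2 and Foxp2 most, with 428 to 615 counts per mouse.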
